A study of Mus musculus with 10 samples.

Results

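The genes described here are the Wnt ligands, their receptors and the secreted proteins that hold them back. They were taken by symbol from the deposited table: every name that begins with Wnt, Fzd, Sfrp or Dkk followed by a digit, together with Lrp5, Lrp6, Axin2, Wif1, Frzb, Lef1, Tcf7 and Rspo3. The rule found 46 of 21513 genes, of which 36 passed the filter on low counts, among 15740 genes in all. They comprise 19 Wnt ligands, 10 Frizzled receptors, the 2 co-receptors Lrp5 and Lrp6, 5 secreted Frizzled-related proteins (Frzb among them), 4 Dickkopf proteins, Wif1, Rspo3, the 3 nuclear or target genes Axin2, Lef1 and Tcf7, and Fzd10os, a non-coding RNA named for the strand opposite Fzd10.

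RNA with poly(A) tails from cells of wild-type neonatal mouse hearts (P1-P3) was sequenced in 10 libraries, 2 for each of 5 groups. Cardiac fibroblasts (CF) were taken at day 14, with neither a vector nor a solvent named in their titles. Induced cardiomyocyte-like cells (iCM) are fibroblasts that received MGT, the reprogramming factors Mef2c, Gata4 and Tbx5, and were harvested at day 14. They had been given the solvent DMSO (DMSO iCM), ZLN005, which raises Ppargc1a transcription (ZLN005 iCM), or GW501516, a ligand that activates PPARδ (GW501516 iCM). Primary cardiomyocytes (CM) were harvested at day 3, and cell type and day therefore cannot be told apart where CM enters a comparison. The sources used here give neither dose nor length of treatment. Nothing in the labels ties the libraries to separate animals or cultures, so the spread behind each p-value may be technical.

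Total counts ran from 39065969 to 61886463 per library. A pair of label fields of the CM samples repeat the fibroblast entries, and the titles were used. The titles were checked by the summed share of all counts that fell on marker genes. The 10 cardiomyocyte markers took 0.0347 to 0.0498 percent of counts in CF, 0.496 to 0.513 in DMSO iCM, 0.830 to 0.869 in ZLN005 iCM, 0.872 to 0.873 in GW501516 iCM and 2.44 in both CM libraries. The fibroblast markers, 9 of 10 in the table, took 3.68 to 3.89 percent in CF, 1.64 to 1.68 in DMSO iCM, 1.07 to 1.09 in ZLN005 iCM, 1.30 to 1.32 in GW501516 iCM and 1.30 to 1.31 in CM. The macrophage markers took 0.329 percent in CF replicate 1 and 0.0523 percent in CF replicate 2, so the CF libraries were unlike each other in this respect. The macrophage share was 0.0849 to 0.0883 percent in DMSO iCM, 0.0119 to 0.0122 in ZLN005 iCM, 0.0113 to 0.0116 with GW501516 and at most 0.00297 in CM. In bulk RNA of this kind, fewer cells of a type and less RNA per cell cannot be told apart, and the part of these marker shares in the results below was not tested.

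Wnt proteins are secreted, lipid-modified ligands that bind Frizzled receptors on the cell surface. With the co-receptors Lrp5 and Lrp6 they stabilise beta-catenin, which enters the nucleus and works with DNA-binding partners such as Lef1 and Tcf7, while other Wnts act through Frizzled and Ror receptors without beta-catenin. Secreted Frizzled-related proteins and Wif1 bind Wnts outside the cell, and Dkk1 binds Lrp5 and Lrp6. In the embryonic heart the pathway is known for acting at first for and later against cardiomyocyte formation, and in the injured heart it is studied in fibroblasts and scarring.

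Values are CPM, counts divided by the TMM-scaled library size and brought to a common total, given for replicate 1 and replicate 2 of a group in that order. Differences are log2 changes ± standard error, with the adjusted p of edgeR's quasi-likelihood test over all 15740 genes, and a gene is said to have risen or fallen only where that p was below 0.05. In every comparison, each member so called had groups whose libraries did not overlap. This adds no support to a call, since with 2 libraries per group it was also seen in uncalled members. Examples between CF and DMSO iCM are Fzd3, Fzd8 and Sfrp4.

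Reprogrammed cells with DMSO differed from fibroblasts in 23 of the 36 tested members, 9 higher and 14 lower, where 39.3 percent of all genes were called (19.9 percent higher and 19.5 percent lower). The median log2 change was -0.20 over the members and -0.012 over all genes. Without CF replicate 1, the library with the higher macrophage share, 24 members were called, and without CF replicate 2 there were 25. Among others, 3 of the 5 tested secreted Frizzled-related genes (Sfrp1, Sfrp2 and Frzb), all 3 tested Dickkopf genes (Dkk1, Dkk2 and Dkk3), Wnt5a and Wnt4 fell, while Wif1, Fzd6, Wnt16, Wnt7a, Axin2 and Lef1 rose. Over the 6 iCM and the 4 CF and CM libraries, 10 members lay in all iCM libraries below every CF and CM library (11.6 percent of all genes did so) and 4 above every one of them (12.0 percent of all genes). The 10 were Sfrp1, Sfrp2, Sfrp4, Dkk2, Dkk3, Fzd1, Fzd4, Lrp6, Wnt5a and Wnt11, and the 4 were Wif1, Fzd5, Fzd6 and Fzd7. Another 7 lay between CF and CM (16.7 percent of all genes) and the other 15 overlapped (59.7 percent).

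Among the ligands, Wnt5a, a Wnt known mostly for signalling without beta-catenin, had the highest level per length in fibroblasts, at 6.53 CPM per kilobase of exon, followed by Wnt9a at 4.25. In DMSO iCM Wnt9a led at 4.53 CPM per kilobase, and in CM Wnt5b led at 7.20. The leading ligand was thus a different gene in each of these groups. Wnt5a (chromosome 14, 28504750 to 28527448, GRCm38) stood at 51.7 and 50.5 CPM in CF, 9.96 and 10.6 in DMSO iCM, 8.80 and 8.30 in ZLN005 iCM, 7.66 and 8.0 in GW501516 iCM, and 19.7 and 20.3 in CM. All iCM libraries were therefore below both CM libraries, which in turn were below both CF libraries. Wnt5a fell by 2.31 ± 0.07 from CF to DMSO iCM (adjusted p = 2.3e-09). It was lower than with DMSO under ZLN005 (-0.27 ± 0.07, adjusted p = 0.0362) and under GW501516 (-0.39 ± 0.08, adjusted p = 0.0069). The first of these calls was lost without either library of any of the 3 iCM groups or of CM (adjusted p from 0.0541 to 0.214), with DESeq2 (0.139), with limma-voom (0.0702) and with no filter (0.0659), and the second without DMSO replicate 2 (0.0547) or GW501516 replicate 1 (0.0693).

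Wnt4 stood at 9.70 and 7.79 CPM in CF and between 1.20 and 1.88 in the 6 iCM libraries, a fall of 2.46 ± 0.22 with DMSO (adjusted p = 8.3e-06). CM had 0.907 and 1.23 CPM. Wnt11, known in the embryo for its part in cardiac development, stood at 4.99 and 4.12 CPM in CF, 2.66 and 2.50 in DMSO iCM, 2.01 and 2.10 in ZLN005 iCM, 1.35 and 0.753 in GW501516 iCM, and 3.87 and 3.94 in CM. Its level was lowest in both GW501516 libraries. The fall from CF to DMSO iCM (-0.82 ± 0.23, adjusted p = 0.0179) was lost without DMSO replicate 1 (0.0737) or replicate 2 (0.11), and the fall with GW501516 (-1.29 ± 0.26, adjusted p = 0.0082) was lost without DMSO replicate 1 (0.0573) or GW501516 replicate 2 (0.055).

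Wnt16 (chromosome 6, 22288227 to 22298522) moved the other way at first. It stood at 2.64 and 3.27 CPM in CF and at 8.92 and 8.08 in DMSO iCM, a rise of 1.52 ± 0.15 (adjusted p = 1.3e-05). With ZLN005 it stood at 3.59 and 3.30 and with GW501516 at 3.84 and 3.91, and CM had 7.83 and 7.62. Both compounds thus had Wnt16 closer to its CF level than to its DMSO level, with log2 changes from DMSO of -1.30 ± 0.15 for ZLN005 (adjusted p = 2.7e-04) and -1.13 ± 0.15 for GW501516 (adjusted p = 6.8e-04). The difference between CM and DMSO iCM was not called (-0.14 ± 0.14, adjusted p = 0.408).

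Wnt7a (chromosome 6, 91363981 to 91411363) was almost without reads in fibroblasts, with 4 counts in replicate 1 and none in replicate 2. It stood at 1.71 and 1.45 CPM in DMSO iCM, 4.09 and 3.37 in ZLN005 iCM, 1.57 and 1.30 in GW501516 iCM, and 3.47 and 3.79 in CM. The ZLN005 libraries overlapped the CM libraries, and the GW501516 libraries overlapped the DMSO libraries. In read pairs, DMSO iCM had 82 against 2 in CF, a ratio of 49.4 (exact 95 percent interval 13.2 to 415, counting error only), and the rise was called (adjusted p = 1.3e-05). The fitted log2 change of 5.52 is not a measure of its size, since it was 9.24 without CF replicate 1 and 4.60 without CF replicate 2. Wnt7a was higher with ZLN005 than with DMSO by 1.23 ± 0.33 (adjusted p = 0.0295), a call lost without any 1 library of the DMSO, ZLN005, GW501516 or CM groups (adjusted p from 0.0517 to 0.186).

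The other ligands above 1 CPM were not called between CF and DMSO iCM. Wnt9a stood at 13.6 and 14.7 CPM in CF, 14.1 and 16.1 in DMSO iCM, and 5.28 and 3.38 in CM. Wnt5b stood at 4.60 and 4.46 in CF, 4.23 and 3.79 in DMSO iCM, and 18.1 and 20.1 in CM. Both therefore set CM apart, in opposite directions. Wnt2 was below 0.4 CPM in all CF and iCM libraries and at 2.65 and 2.76 in CM. Wnt2b stood at 1.98 and 2.86 CPM in CF, 3.20 and 2.22 in DMSO iCM, and 4.69 and 3.84 in CM.

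**Figure D1:**
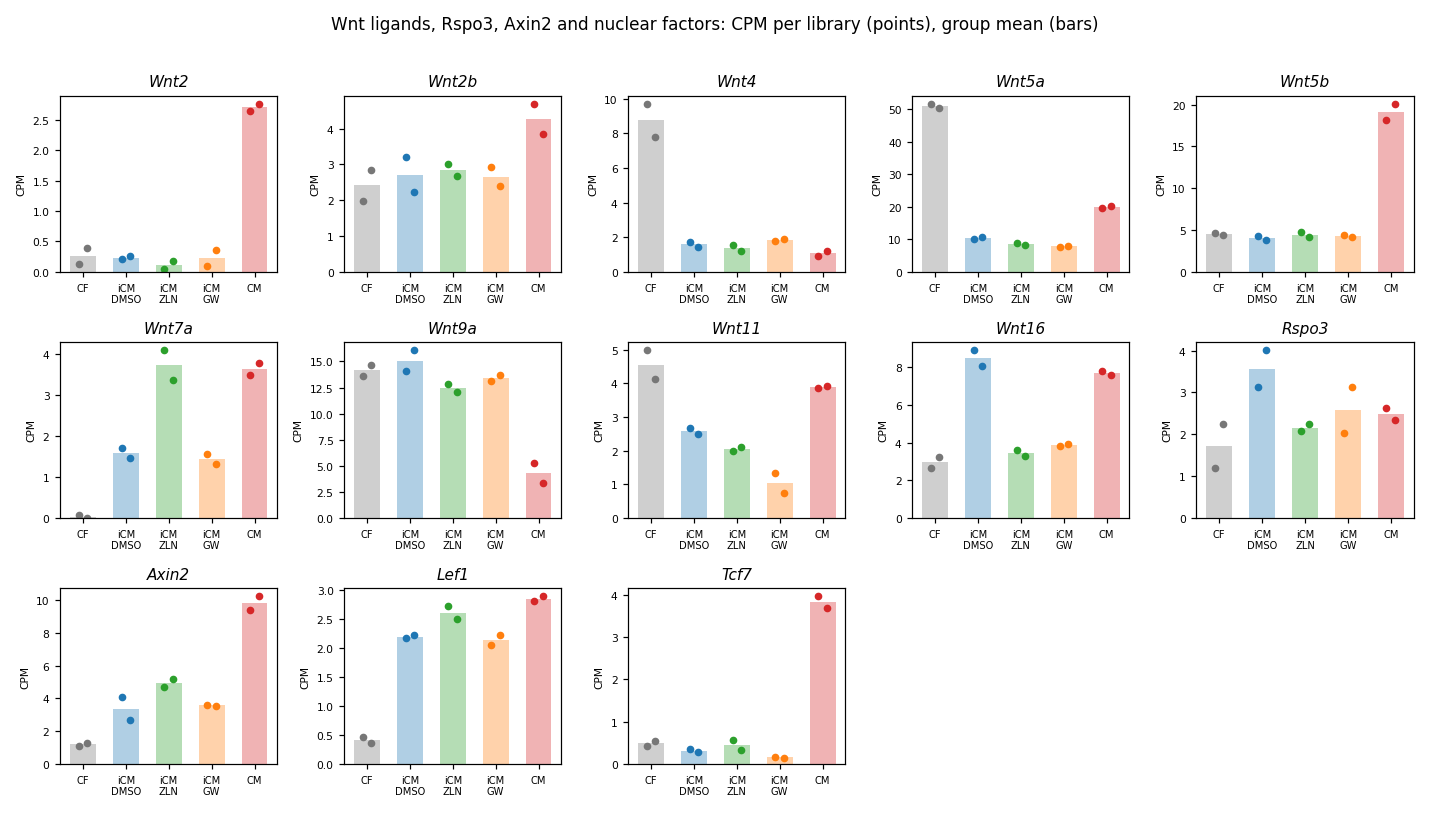
Level of Wnt ligands, Rspo3, Axin2, Lef1 and Tcf7 in the 5 groups, in TMM-scaled CPM on a linear axis, with bars for the mean and points for the 2 libraries. Wnt5a is highest in CF, Wnt16 is between 7.62 and 8.92 CPM in DMSO iCM and in CM and at most 3.91 CPM elsewhere, and Wnt5b, Wnt2 and Axin2 are highest in CM.

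Among the receptors, the 10 Frizzled genes together held 599 ± 60 CPM in CF, 763 ± 5.2 in DMSO iCM and 356 ± 2.9 in CM (SD, n = 2). Fzd6, a Frizzled known for its part in planar cell polarity, rose by more than this sum did between CF and DMSO iCM. Fzd6 (chromosome 15, 39006034 to 39038188) stood at 60.1 and 73.2 CPM in CF, 272 and 269 in DMSO iCM, 221 and 223 in ZLN005 iCM, 204 and 209.6 in GW501516 iCM, and 35.6 and 37.2 in CM. Every iCM library was above every CF library, and CM was lowest. The rise from CF to DMSO iCM was 2.02 ± 0.08 (adjusted p = 8.5e-09). Per kilobase of exon, Fzd6 was the highest Frizzled in DMSO iCM, at 56.2 CPM against 34.8 for Fzd2 and 29.7 for Fzd7. In CF Fzd2 was highest at 54.5 CPM per kilobase and Fzd6 had 13.8, and in CM Fzd2 had 22.5 and Fzd6 had 7.56.

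Fzd5 and Fzd7, both known as Wnt receptors that can feed beta-catenin, also rose. Fzd7 stood at 85.9 and 95.1 CPM in CF and at 136 and 134 in DMSO iCM, a rise of 0.58 ± 0.05 (adjusted p = 1.2e-05), and at 38.8 and 39.5 in CM. Fzd5 stood at 25.2 and 29.5 in CF and at 49.8 and 49.5 in DMSO iCM (0.86 ± 0.07, adjusted p = 5.2e-06), with 29.1 and 28.2 in CM. The CM libraries lay within the CF range for Fzd5 and below it for Fzd7.

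Fzd2, Fzd4 and Fzd1 fell. Fzd2 stood at 182 and 217 CPM in CF, 125 and 129.9 in DMSO iCM (-0.65 ± 0.07, adjusted p = 4.6e-05), and 80.2 and 84.4 in CM. Fzd4, which also serves the vascular ligand norrin, stood at 32.5 and 31.8 in CF, 20.9 and 20.6 in DMSO iCM (-0.63 ± 0.09, adjusted p = 1.8e-04), and 34.4 and 38.0 in CM. Fzd4 was thus near the CF level in CM and below it in iCM. Fzd1 stood at 83.2 and 93.4 in CF and 75.4 and 71.2 in DMSO iCM (-0.27 ± 0.06, adjusted p = 0.0037), a call lost when only these groups were fitted (0.0585). Fzd3 (8.44 and 11.1 CPM in CF, 12.4 and 11.2 in DMSO iCM, 21.8 and 22.3 in CM) and Fzd8 (79.2 and 90.4, 74.4 and 73.2, 29.8 and 25.2) were not called between CF and DMSO iCM.

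Of the co-receptors, Lrp5 stood at 257 and 278 CPM in CF, 169 and 168 in DMSO iCM, 153 and 159 in ZLN005 iCM, 221 and 222 in GW501516 iCM, and 90.2 and 81.5 in CM. GW501516 was the iCM group nearest to CF and CM was the lowest. The fall from CF to DMSO iCM was -0.67 ± 0.06 (adjusted p = 4.3e-06). Lrp6 varied far less, between 134 and 168 CPM over all libraries, and its fall of -0.20 ± 0.05 from CF to DMSO iCM (adjusted p = 0.0046) was lost when only these groups were fitted (0.0533).

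**Figure D2:**
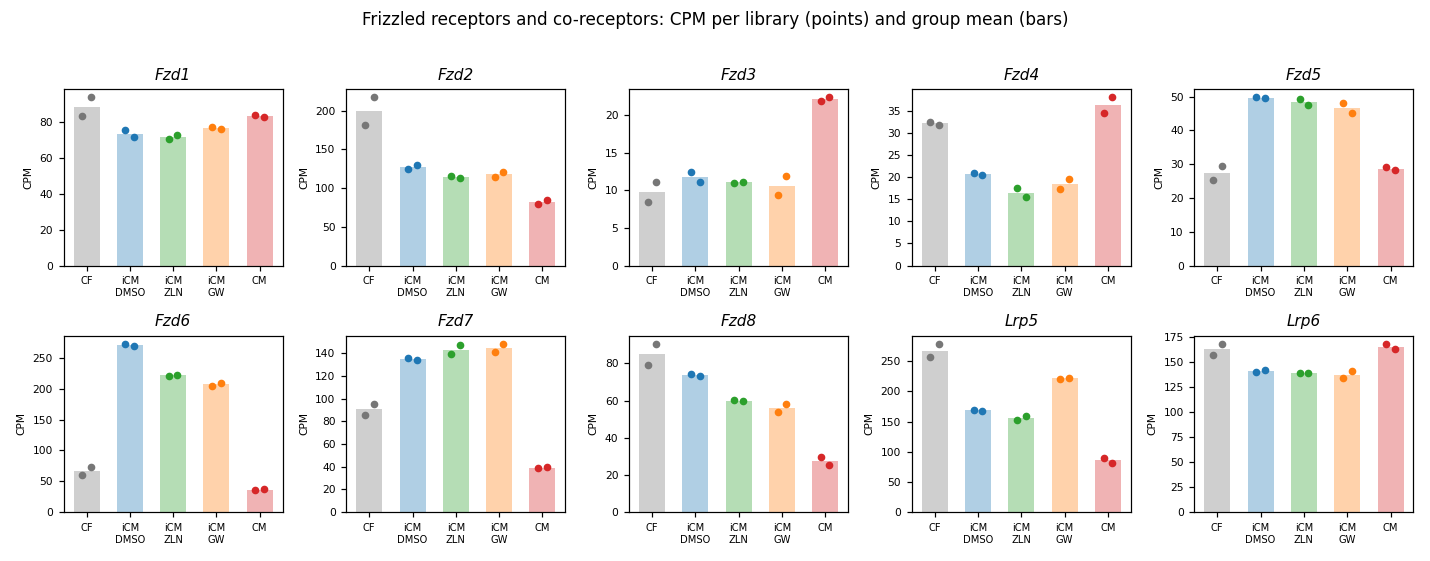
Level of Fzd1 to Fzd8, Lrp5 and Lrp6 in the 5 groups, in TMM-scaled CPM on linear axes, with bars for the mean and points for the 2 libraries. Fzd6 reaches 272 CPM in DMSO iCM and is 35.6 and 37.2 CPM in CM, while Lrp6 stays between 134 and 168 CPM.

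The secreted Frizzled-related proteins together held 563 ± 24 CPM in CF, 78.9 ± 1.2 in DMSO iCM and 156 ± 2.9 in CM (SD, n = 2). Sfrp1 (chromosome 8, 23411502 to 23449632), which carries a Frizzled-like domain that binds Wnts, gave most of this in CF and CM. In DMSO iCM Frzb gave most of it. Sfrp1 stood at 356 and 380.0 CPM in CF, 19.3 and 21.2 in DMSO iCM, 10.7 and 10.5 in ZLN005 iCM, 11.1 and 10.2 in GW501516 iCM, and 94.7 and 95.4 in CM. The groups did not overlap between CF, CM, DMSO iCM and the compound-treated cells, and ZLN005 and GW501516 overlapped each other. Sfrp1 fell by 4.18 ± 0.06 from CF to DMSO iCM (adjusted p = 7.6e-12), the member with the smallest p in that comparison. It fell further with ZLN005 (-0.94 ± 0.07, adjusted p = 1.1e-05) and with GW501516 (-0.92 ± 0.07, adjusted p = 1.4e-05).

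Sfrp2 followed the same order at lower levels. It stood at 26.9 and 30.6 CPM in CF, 2.42 and 2.56 in DMSO iCM, 0.619 and 0.616 in ZLN005 iCM, 0.58 and 0.803 in GW501516 iCM, and 10.8 and 10.2 in CM. It fell by 3.53 ± 0.14 from CF to DMSO iCM (adjusted p = 1.2e-08), and was lower again with ZLN005 (-2.01 ± 0.17, adjusted p = 3.6e-05) and with GW501516 (-1.85 ± 0.17, adjusted p = 7.2e-05) than with DMSO. The fibroblast marker share was also highest in CF and lower with either compound than with DMSO. It was lower in CM (1.30 to 1.31 percent) than in DMSO iCM (1.64 to 1.68), while Sfrp1 and Sfrp2 were higher in CM. The share was alike in GW501516 and CM, while Sfrp1 and Sfrp2 were higher in CM by 3.15 ± 0.06 and 3.92 ± 0.16 (adjusted p = 6.2e-11 and 7.7e-09). Whether the share had a part in these levels was not tested.

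Frzb, also called sFRP3, is another Wnt-binding protein of this family and lies on chromosome 2 from 80411970 to 80447625. It stood at 160.2 and 166 CPM in CF, 53.9 and 53.7 in DMSO iCM, 35.6 and 35.1 in ZLN005 iCM, 63.2 and 64.7 in GW501516 iCM, and 45.7 and 49.6 in CM. The compounds therefore lay on opposite sides of DMSO for this gene. Frzb fell by 1.60 ± 0.05 from CF to DMSO iCM (adjusted p = 1.7e-09) and was lower again with ZLN005 than with DMSO (-0.61 ± 0.05, adjusted p = 3.3e-05). Its rise with GW501516 (0.25 ± 0.05, adjusted p = 0.0074) was lost without DMSO replicate 1 (0.0612) or GW501516 replicate 2 (0.075).

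Sfrp4 stood at 2.99 and 3.51 CPM in CF, 2.35 and 2.24 in DMSO iCM, 1.19 and 1.04 in ZLN005 iCM, 0.677 and 0.753 in GW501516 iCM, and 2.61 and 2.79 in CM. Between CF and DMSO iCM it was not called (-0.50 ± 0.19, adjusted p = 0.0628). It was lower with GW501516 than with DMSO (-1.68 ± 0.22, adjusted p = 6.7e-04). Its lower level with ZLN005 (-1.04 ± 0.21, adjusted p = 0.0073) was lost as a call without DMSO replicate 1 (0.0542) or ZLN005 replicate 2 (0.0691).

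Wif1, a secreted Wnt-binding protein unrelated to the Frizzled domain (chromosome 10, 121033960 to 121100650), was the inhibitor that went up. It stood at 0.189 and 0.0656 CPM in CF, 18.7 and 18.1 in DMSO iCM, 19.4 and 20.1 in ZLN005 iCM, 16.8 and 15.8 in GW501516 iCM, and 3.03 and 2.81 in CM. All iCM libraries were above both CM libraries, which were above both CF libraries. The rise from CF to DMSO iCM was 7.13 ± 0.22 (adjusted p = 2.3e-09), and 8.09 without CF replicate 1. Differences between the iCM groups were not called, with 0.10 ± 0.14 for ZLN005 and -0.18 ± 0.14 for GW501516 against DMSO (adjusted p = 0.698 and 0.462).

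Among the Dickkopf genes, Dkk3, a divergent member whose action on Wnt receptors is not settled, held nearly all the reads. Dkk3 (chromosome 7, 112116017 to 112159057) stood at 216 and 263 CPM in CF, 57.1 and 59.2 in DMSO iCM, 97.3 and 97.5 in ZLN005 iCM, 133 in both libraries with GW501516, and 243 and 245 in CM. The iCM groups rose in the order DMSO, ZLN005 and GW501516 without overlap, and the CM libraries lay between the 2 CF libraries. Dkk3 fell by 2.04 ± 0.08 from CF to DMSO iCM (adjusted p = 9.2e-09) and was higher than with DMSO by 0.74 ± 0.08 with ZLN005 (adjusted p = 1.6e-04) and by 1.19 ± 0.08 with GW501516 (adjusted p = 7.6e-06). Unlike Sfrp1, Dkk3 was higher with the compounds than with DMSO. The fibroblast marker share was lower with them, and its part in the level of either gene was not tested.

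Dkk1, the Lrp5 and Lrp6 antagonist, stood at 1.90 and 1.89 CPM in CF and between 0.257 and 0.423 in the 6 iCM libraries, and had no count in either CM library. It fell by 2.25 ± 0.34 from CF to DMSO iCM (adjusted p = 6.0e-04). Against a floor of 6 counts over the group, which is 3 read pairs, it was at least 26.65-fold lower in CM than in CF and at least 5.575-fold lower than in DMSO iCM. Dkk2, which also binds Lrp6, stood at 1.87 and 0.985 CPM in CF, 0.298 and 0.322 in DMSO iCM, and 3.56 and 3.07 in CM, a fall of 2.20 ± 0.37 from CF to DMSO iCM (adjusted p = 8.0e-04). The 2 antagonists thus both fell in iCM but lay at opposite ends in CM.

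**Figure D3:**
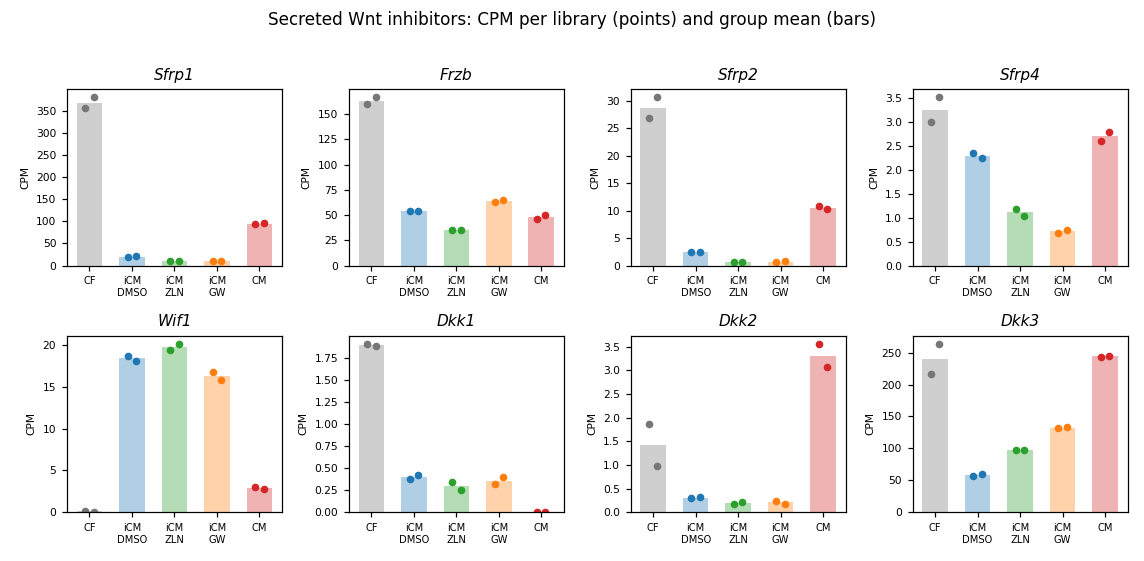
Level of secreted inhibitors in the 5 groups, in TMM-scaled CPM on linear axes, with bars for the mean and points for the 2 libraries. Sfrp1, Sfrp2 and Frzb are highest in CF, Wif1 is between 15.8 and 20.1 CPM in iCM and at most 3.03 elsewhere, and Dkk3 rises from DMSO to ZLN005 to GW501516.

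Axin2 is a scaffold of the beta-catenin destruction complex that the pathway itself switches on, and it serves as a common readout of beta-catenin signalling. It lies on chromosome 11 from 108920349 to 108950783. It stood at 1.09 and 1.31 CPM in CF, 4.06 and 2.66 in DMSO iCM, 4.68 and 5.18 in ZLN005 iCM, 3.62 and 3.54 in GW501516 iCM, and 9.40 and 10.2 in CM. CF was lowest, CM was highest and all iCM libraries lay between them. The rise from CF to DMSO iCM was 1.49 ± 0.21 (adjusted p = 2.7e-04). Other targets did not all follow this order. Of the 19 tested targets described below, 6 rose and 7 fell from CF to DMSO iCM (19.9 and 19.5 percent of all genes). In CM against CF, 7 were higher and 9 lower (34.5 and 36.2 percent of all genes). Of the 4 with the smallest p there, Ccn5 (-5.30 ± 0.09), Nkd1 (-1.96 ± 0.07) and Fgf9 (-2.79 ± 0.11) were lower and Bambi (2.045 ± 0.07) was higher. The difference in Axin2 between ZLN005 and DMSO was not called (0.55 ± 0.20, adjusted p = 0.0964). It was 0.56 without either CF library and 0.89 without DMSO replicate 1. When only these groups were fitted it was called (0.0247). So were Fzd2, Lrp5, Rspo3 and Wnt9a, which were not called with all groups and all libraries fitted. Axin2, Fzd2 and Rspo3 were also called in fits of all groups that left out either CF library.

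Lef1, a DNA-binding partner of beta-catenin, stood at 0.472 and 0.361 CPM in CF and at 2.18 and 2.22 in DMSO iCM, a rise of 2.39 ± 0.22 (adjusted p = 1.1e-05), with 2.81 and 2.89 in CM. Tcf7, another such partner, was at or below 0.57 CPM in all CF and iCM libraries and at 3.96 and 3.68 in CM. Lef1 was therefore near the CM level in iCM while Tcf7 was not. Tcf7l2, from the intracellular list described below, was lower in CM than in DMSO iCM (-0.68 ± 0.05, adjusted p = 5.7e-07), at 32.9 against 52.9 CPM. Of the 28 genes of that list, 9 were higher and 13 lower in CM than in DMSO iCM (34.1 and 35.7 percent of all genes). Rspo3, a secreted protein that strengthens Wnt signals through Lgr receptors, stood at 1.20 and 2.25 CPM in CF, 3.13 and 4.01 in DMSO iCM, 2.08 and 2.24 in ZLN005 iCM, 2.03 and 3.14 in GW501516 iCM, and 2.63 and 2.35 in CM. Its rise from CF to DMSO iCM (1.05 ± 0.31, adjusted p = 0.0205) was lost without DMSO replicate 2 (0.127) and when only these groups were fitted (0.0819).

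The promoters of some of these genes were searched for the core site that Lef1 and Tcf proteins bind, spelled CTTTGAA or else CTTTGAT, and also CTTTGTA or else CTTTGTT, on either strand, in the 250 bases before the start of the gene in RefSeq (GRCm38.p6). Of the 30 members with an entry, 3 held it (Dkk1, Fzd7 and Wnt11), and 4026 of 27025 genes did so, which is 14.9 percent. Axin2 is shown as the readout gene and Wif1 as the inhibitor that rose, and neither holds a match in this window. Dkk1, Fzd7 and Wnt11 are shown for their matches, which are in capitals. No 2 matches overlapped, and a match is a description of the letters and not of binding. The starts are those of RefSeq, and GENCODE vM21 places some of them elsewhere. There Dkk1 starts at 30549665 and Wif1 at 121033960, both inside the windows shown, and Fzd7 at 59482424, past the end of its window. The Dkk1 matches thus lie inside the GENCODE gene. Each sequence runs 5′ to 3′ on the strand of its gene.
Axin2, chr11:108920099-108920348, plus strand: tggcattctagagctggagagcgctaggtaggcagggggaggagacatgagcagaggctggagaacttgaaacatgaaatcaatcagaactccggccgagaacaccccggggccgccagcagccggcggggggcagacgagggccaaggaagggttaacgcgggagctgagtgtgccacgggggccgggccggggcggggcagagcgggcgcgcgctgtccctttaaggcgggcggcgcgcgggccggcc
Wif1, chr10:121033754-121034003, plus strand: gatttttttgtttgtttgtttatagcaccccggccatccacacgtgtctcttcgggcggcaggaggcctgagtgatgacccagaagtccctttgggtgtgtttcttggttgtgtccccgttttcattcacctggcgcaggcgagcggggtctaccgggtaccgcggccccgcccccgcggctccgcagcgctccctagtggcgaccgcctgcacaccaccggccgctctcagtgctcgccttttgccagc
Dkk1, chr19:30549497-30549746, minus strand, with sites that begin 117 and 98 bases before the start: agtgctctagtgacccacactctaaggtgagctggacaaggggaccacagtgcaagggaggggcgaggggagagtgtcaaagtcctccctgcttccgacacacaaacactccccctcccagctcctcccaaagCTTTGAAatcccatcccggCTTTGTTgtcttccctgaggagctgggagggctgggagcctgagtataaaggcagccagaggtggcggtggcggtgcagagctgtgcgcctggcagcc
Fzd7, chr1:59481897-59482146, plus strand, with a site 130 bases before the start: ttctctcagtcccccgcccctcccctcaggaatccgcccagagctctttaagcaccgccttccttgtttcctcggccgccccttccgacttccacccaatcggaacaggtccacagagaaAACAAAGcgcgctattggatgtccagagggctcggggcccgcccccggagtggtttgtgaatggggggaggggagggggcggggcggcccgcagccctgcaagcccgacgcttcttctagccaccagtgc
Wnt11, chr7:98834862-98835111, plus strand, with a site 51 bases before the start: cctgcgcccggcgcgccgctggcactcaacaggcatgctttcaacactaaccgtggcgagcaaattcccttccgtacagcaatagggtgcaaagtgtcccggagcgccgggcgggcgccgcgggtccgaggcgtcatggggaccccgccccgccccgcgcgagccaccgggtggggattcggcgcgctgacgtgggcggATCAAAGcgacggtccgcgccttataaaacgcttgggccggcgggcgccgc

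The compounds were each compared with DMSO, and these comparisons share the DMSO libraries. ZLN005 differed from DMSO in 11 of the 36 members, 2 higher and 9 lower, where 15.5 percent of all genes were called (6.64 percent higher and 8.84 percent lower). Over the members the median log2 change was -0.24, and over all genes -0.00041. There were 5 calls without ZLN005 replicate 2, 6 without either DMSO library, and 7 without ZLN005 replicate 1 or either GW501516 library. Wnt7a and Dkk3 were higher, and Sfrp1, Sfrp2, Sfrp4, Frzb, Wnt5a, Wnt16, Fzd4, Fzd6 and Fzd8 were lower. Of these 11 calls, those on Dkk3, Frzb, Sfrp1, Sfrp2 and Wnt16 were made in every alternative and without each library.

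The receptor changes with ZLN005 were small. Fzd6 was lower (-0.29 ± 0.07, adjusted p = 0.0246), Fzd8 (-0.30 ± 0.08, adjusted p = 0.0328; 60.1 and 59.9 CPM) and Fzd4 (-0.33 ± 0.09, adjusted p = 0.0301; 17.6 and 15.4 CPM). The calls on Fzd6 and Fzd8 were lost without any 1 library of the 3 iCM groups (adjusted p from 0.0522 to 0.143 and from 0.0537 to 0.169). The call on Fzd4 was lost without DMSO replicate 1 (0.151), DMSO replicate 2 (0.122) or ZLN005 replicate 2 (0.235).

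GW501516 differed from DMSO in 11 members, 3 higher and 8 lower, where 14.8 percent of all genes were called (7.80 percent higher and 6.96 percent lower). Over the members the median was -0.15, and over all genes -0.0055. Without DMSO replicate 1 there were 7 calls. Dkk3, Frzb and Lrp5 were higher, and Sfrp1, Sfrp2, Sfrp4, Wnt5a, Wnt11, Wnt16, Fzd6 and Fzd8 were lower. Lrp5 rose by 0.40 ± 0.06 (adjusted p = 0.0011). Fzd6 was lower (-0.39 ± 0.07, adjusted p = 0.0060), lost without DMSO replicate 1 (0.0562) or GW501516 replicate 1 (0.0718), and Fzd8, at 54.1 and 58.4 CPM, (-0.39 ± 0.08, adjusted p = 0.0101), lost without the same libraries (0.0772 and 0.111). The calls on Dkk3, Lrp5, Sfrp1, Sfrp2, Sfrp4 and Wnt16 were made in every alternative and without each library.

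The compounds were also compared with each other. ZLN005 and GW501516 differed in 4 members, 1 higher and 3 lower with ZLN005, where 5.06 percent of all genes were called (1.54 percent higher and 3.52 percent lower). The median log2 difference was 0.029 over the members and -0.0015 over all genes. There were 2 calls without either ZLN005 library or GW501516 replicate 2, and 7 without CF replicate 1. Frzb was lower with ZLN005 (-0.86 ± 0.05, adjusted p = 4.5e-06) and Lrp5 (-0.51 ± 0.06, adjusted p = 4.7e-04), and these calls were made in every alternative. Dkk3 was lower with ZLN005 (-0.45 ± 0.08, adjusted p = 0.0067), a call lost without any 1 library of the ZLN005 or GW501516 groups (0.0577 to 0.0694). Wnt7a was higher with ZLN005 by 1.37 ± 0.33 (adjusted p = 0.0436), a call lost without any 1 library of the iCM groups or CM (0.0858 to 0.29). The differences in Sfrp1 (-0.02 ± 0.07, adjusted p = 0.951), Sfrp2 (-0.16 ± 0.20, 0.830) and Wnt16 (-0.17 ± 0.15, 0.644) were not called.

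**Figure D4:**
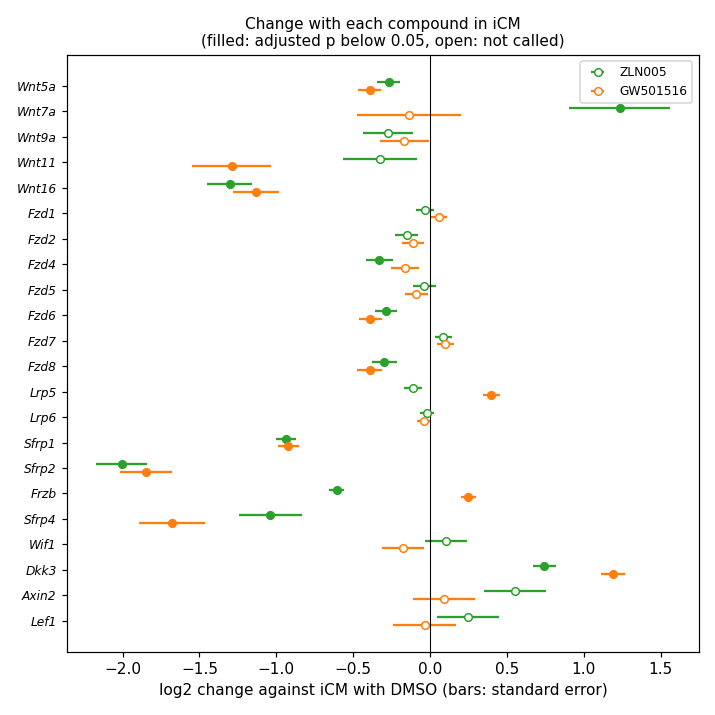
Log2 change ± standard error of 22 members with ZLN005 and with GW501516 against DMSO iCM, which both comparisons share, with filled points where the adjusted p was below 0.05. Sfrp2, Wnt16 and Sfrp1 are lower with both, Dkk3 is higher with both, and Frzb lies on opposite sides.

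Cardiomyocytes differed from fibroblasts in 27 of the 36 members, 13 higher and 14 lower, where 70.7 percent of all genes were called (34.5 percent higher and 36.2 percent lower). The median log2 change was 0.025 over the members and -0.023 over all genes. The 13 higher in CM were Wnt2, Wnt2b, Wnt5b, Wnt7a, Wnt10b, Wnt16, Fzd3, Wif1, Dkk2, Sfrp5, Axin2, Lef1 and Tcf7. The 14 lower were Wnt4, Wnt5a, Wnt6, Wnt9a, Fzd2, Fzd6, Fzd7, Fzd8, Fzd10, Lrp5, Sfrp1, Sfrp2, Frzb and Dkk1. Of the nuclear and target genes, all 3 were higher, Axin2 by 3.03 ± 0.22 (adjusted p = 4.4e-07), Lef1 by 2.76 ± 0.23 (adjusted p = 1.3e-06) and Tcf7 by 2.95 ± 0.32 (adjusted p = 1.1e-05). Wnt5b was higher by 2.08 ± 0.12 (adjusted p = 1.1e-07) and Wnt9a lower (-1.70 ± 0.17, adjusted p = 6.9e-06). The call on Wnt2b (0.82 ± 0.25, adjusted p = 0.0131) was lost without CM replicate 1 (0.0902).

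Several of these genes had very few reads in one group. Wnt2 was higher in CM than in CF by 3.38 ± 0.60 (adjusted p = 4.9e-04), and by 4.39 without CF replicate 2 or 2.78 without CF replicate 1. Wif1 was higher by 4.48 ± 0.25 (adjusted p = 5.6e-08), and by 5.43 without CF replicate 1. Wnt7a had 153 read pairs in CM against 2 in CF, a ratio of 113 (exact 95 percent interval 30.7 to 941), and Sfrp5 had 23 against 1, a ratio of 34.0 (5.51 to 1400). Fzd10 and Wnt6 had no count in CM and were at least 4.178-fold and 7.791-fold lower there than in CF, on the floor given for Dkk1. Their CF libraries were unequal, with 28 and 9 counts of Fzd10 and 51 and 18 of Wnt6, and without CF replicate 1 the bounds were 2.075-fold and 4.151-fold.

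Against DMSO iCM, cardiomyocytes differed in 30 members, 18 higher and 12 lower, where 69.7 percent of all genes were called (34.1 percent higher and 35.7 percent lower). Their median log2 change was 0.30 over the members and -0.030 over all genes. The 18 higher in CM were Sfrp1, Sfrp2, Sfrp5, Dkk2, Dkk3, Wnt2, Wnt2b, Wnt5a, Wnt5b, Wnt7a, Wnt10b, Wnt11, Fzd1, Fzd3, Fzd4, Lrp6, Axin2 and Tcf7. The 12 lower were Wif1, Frzb, Dkk1, Fzd2, Fzd5, Fzd6, Fzd7, Fzd8, Fzd10, Lrp5, Wnt6 and Wnt9a. Sfrp1 was higher by 2.23 ± 0.06 (adjusted p = 3.2e-10), Sfrp2 by 2.08 ± 0.14 (adjusted p = 2.5e-07) and Dkk3 by 2.07 ± 0.08 (adjusted p = 4.1e-09). Fzd6 was lower (-2.90 ± 0.08, adjusted p = 4.6e-10), Wif1 (-2.65 ± 0.16, adjusted p = 1.1e-07) and Fzd7 (-1.78 ± 0.06, adjusted p = 1.4e-09). Axin2 was higher in CM by 1.54 ± 0.20 (adjusted p = 5.3e-05), and Lef1 was not called (0.37 ± 0.20, adjusted p = 0.119).

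Of the 30 calls between CM and DMSO iCM, 7 were lost in some setting. Wnt10b, Wnt11 and Wnt6 were each lost without any 1 library of either group (adjusted p from 0.0725 to 0.139, from 0.11 to 0.171 and from 0.0509 to 0.0838), and Wnt11 also without either ZLN005 library (0.0691 and 0.0686). With DESeq2, Wnt10b and Wnt11 were also not called (0.0769 and 0.0608). Sfrp5 had 23 read pairs in CM against 1 in DMSO iCM, a ratio of 28.2 (exact 95 percent interval 4.58 to 1160), and Dkk1, Fzd10 and Wnt6 had no count in CM. Wnt2b was lost without DMSO replicate 2 (0.251), CM replicate 1 (0.19), either ZLN005 library (0.055 and 0.0544) or GW501516 replicate 1 (0.0501). Fzd1 was lost without DMSO replicate 2 (0.123) or either CM library (0.0828 and 0.0645), Wnt7a without DMSO replicate 2 (0.069), and Frzb without CM replicate 1 (0.0887). The other 23 calls were not lost in any setting that tested them, but Fzd10 and Sfrp5 were among them and were not tested under the filter of 1 CPM in 2 libraries, which left 21 calls made in every setting.

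Against iCM with ZLN005, cardiomyocytes differed in 29 members, 18 higher and 11 lower, where 67.9 percent of all genes were called (34.2 percent higher and 33.7 percent lower). The 18 higher were Sfrp1, Sfrp2, Sfrp4, Sfrp5, Frzb, Dkk2, Dkk3, Wnt2, Wnt5a, Wnt5b, Wnt11, Wnt16, Fzd1, Fzd3, Fzd4, Lrp6, Axin2 and Tcf7, and the 11 lower were Wif1, Dkk1, Fzd2, Fzd5, Fzd6, Fzd7, Fzd8, Fzd10, Lrp5, Wnt6 and Wnt9a. Frzb was higher in CM by 0.43 ± 0.05 (adjusted p = 2.2e-05), and Wnt7a was not called (-0.04 ± 0.32, adjusted p = 0.924). The calls on Wnt6, Fzd10, Sfrp5 and Fzd1 were each lost in some setting. Wnt6 was lost without ZLN005 replicate 2 (0.299), either DMSO library (0.0549 and 0.0569) or either CM library (0.12 and 0.104) and with limma-voom (0.105), Fzd10 without ZLN005 replicate 2 (0.15) or either CM library (0.0877 and 0.0742) and with halved counts (0.053), and Sfrp5 and Fzd1 without ZLN005 replicate 1 (0.0674 and 0.0594). Wnt2 was higher in CM by 4.49 ± 0.68 (adjusted p = 1.6e-04), and by 5.68 without ZLN005 replicate 2.

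Against iCM with GW501516 they also differed in 29 members, 18 higher and 11 lower, where 67.2 percent of all genes were called (33.7 percent higher and 33.5 percent lower). The 18 higher were Sfrp1, Sfrp2, Sfrp4, Dkk2, Dkk3, Wnt2, Wnt2b, Wnt5a, Wnt5b, Wnt7a, Wnt10b, Wnt11, Wnt16, Fzd3, Fzd4, Lrp6, Axin2 and Tcf7, and the 11 lower were Wif1, Frzb, Dkk1, Fzd2, Fzd5, Fzd6, Fzd7, Fzd8, Lrp5, Wnt4 and Wnt9a. Frzb was lower in CM (-0.42 ± 0.05, adjusted p = 2.2e-05). Wnt2b was lost as a call without CM replicate 1 (0.174) or either GW501516 library (0.0564 and 0.181), Wnt10b without either CM library (0.0612 and 0.0947) or GW501516 replicate 2 (0.148), and Wnt4 without CM replicate 1 (0.103) or GW501516 replicate 2 (0.0568). Wnt10b was also not called with DESeq2 (adjusted p = 0.0599), and Wnt4 was not called with limma-voom (adjusted p = 0.0685). Wnt2 was higher in CM by 3.59 ± 0.64 (adjusted p = 5.2e-04), and by 2.93 without GW501516 replicate 1 or 4.77 without replicate 2. All comparisons with CM share the CM libraries. The median log2 change over the members was 0.51 against ZLN005 and 0.78 against GW501516, and -0.0068 and -0.0039 over all genes.

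Other genes of the pathway were taken from 4 lists. Of 20 tested genes for Wnt secretion and other extracellular modulators, 5 rose and 5 fell from CF to DMSO iCM, where 19.9 percent of all genes rose and 19.5 percent fell. Among them Cthrc1, a secreted protein that favours signalling without beta-catenin, rose by 2.08 ± 0.07 (adjusted p = 4.6e-09), from 50.3 ± 5.7 to 212 ± 6.0 CPM, and Gpc6, a cell-surface glypican, fell by 2.82 ± 0.08 (adjusted p = 1.6e-09), from 94.0 ± 3.8 to 13.3 ± 0.51 CPM (SD, n = 2). Of 28 intracellular genes of the beta-catenin branch, 3 rose and 12 fell. Of 19 tested targets, 6 rose and 7 fell, and of 27 genes of the branch without beta-catenin, 6 rose and 11 fell. The median log2 change was -0.054 in the extracellular list, -0.10 in the intracellular list, -0.026 in the targets and -0.18 in the branch without beta-catenin, against -0.012 over all genes.

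Between CM and CF, 8 of the 20 extracellular genes were higher and 10 lower, 5 of the 28 intracellular genes were higher and 15 lower, 7 of the 19 targets were higher and 9 lower, and 14 of the 27 genes of the branch without beta-catenin were higher and 8 lower, where 34.5 percent of all genes were higher and 36.2 percent lower. The medians in that order were -0.42, -0.16, -0.43 and 0.13, against -0.023 over all genes. Lgr4, a receptor for R-spondins, was higher in CM by 1.86 ± 0.06 (adjusted p = 5.9e-10), at 121 ± 2.0 against 33.5 ± 0.35 CPM (SD, n = 2). Camk2b, a calcium-dependent kinase placed downstream of Wnts but also at work in the contraction of heart muscle, was higher by 5.56 ± 0.17 (adjusted p = 4.8e-10), at 1611 ± 27 against 34.2 ± 9.8 CPM. Against DMSO, 4 of the 19 targets were higher and 4 lower with ZLN005, where 6.64 percent of all genes were higher and 8.84 percent lower, and 3 were higher and 4 lower with GW501516, where 7.80 percent were higher and 6.96 percent lower. Their medians were -0.058 and -0.051, against -0.00041 and -0.0055 over all genes. Of the 20 extracellular genes, 0 were higher and 5 lower with ZLN005, and 1 was higher and 4 lower with GW501516, against the same shares. Of the 28 intracellular genes, 0 were higher and 0 lower with ZLN005, and 1 was higher and 2 lower with GW501516. Of the 27 genes of the branch without beta-catenin, 4 were higher and 2 lower with ZLN005, and 1 was higher and 2 lower with GW501516. Cthrc1, which had risen from CF to DMSO iCM, was lower with ZLN005 (-1.45 ± 0.07, adjusted p = 1.0e-06, at 77.6 ± 0.99 CPM). It was also lower with GW501516 (-1.29 ± 0.07, adjusted p = 2.0e-06, at 86.9 ± 0.50 CPM).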

How the data were processed

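Deposited values are raw read counts for each gene symbol. Per the submitters' processing notes, reads were trimmed with Trimmomatic 0.36, aligned to mm10 with HISAT2, handled with SAMtools and counted with featureCounts of Subread 1.5.1; the sources used here give no annotation, strand setting, pair counting or treatment of multiply mapped reads. Among counts of 1 to 20, 70.7 to 73.7 percent were even in each library, so both mates of a pair appear to have been counted. Overlapping genes were not told apart by strand here: Wnt7b shares exon sequence with AU022754 on the other strand.

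The edgeR 4.0.16 package in R 4.3.3 was used for TMM scaling, for the filter (filterByExpr, 15740 genes left) and for a single quasi-likelihood model of the 5 groups, with Benjamini-Hochberg adjustment over all genes of a comparison and calls at 0.05. Every adjusted p comes from this test unless another tool is named. A standard error is the size of the log2 change divided by the root of its F statistic. For a group without a count, the fold is a bound from a floor of 6 counts over the group. Such bounds and the intervals of ratios reflect counting error alone. Ratios of read pairs used counts halved and rounded up. Levels per length used GENCODE vM21 exons. The members, the pathway lists and the marker lists were chosen with earlier results of these data known. Members with a mean of at least 1 CPM in a group are named with values, and up to 4 called genes of a pathway list could be named per comparison.

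Alternatives were DESeq2 1.42.0, limma-voom (limma 3.58.1), DESeq2 size factors, no filter, a filter of 1 CPM in 2 libraries, only the groups compared, a replicate block and each library left out. Halved counts were added after the data were seen. The method was also run on counts simulated from the group means and spread fitted to these libraries, which cannot show whether that spread is technical. Figures were drawn with matplotlib 3.10.9.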

Additional observations from a re-analysis of the deposited data

How the results depend on the processing

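Of 164 calls on members over the 8 comparisons, 32 were lost in at least 1 of 18 settings, and 30 results not called became called in some setting. Calls on Fzd10, Sfrp5, Wnt6 and Wnt10b could not be made under the filter of 1 CPM in 2 libraries, which removes these genes, and are not counted as lost there. The same holds for some calls on Fzd10 and Wnt6 when only the groups compared were fitted, and for Wnt6 with halved counts. With all libraries kept, the number of members called moved by over 1.5 times for ZLN005 against GW501516 alone, from 4 to 8 when only the groups compared were fitted. Leaving out 1 library gave 21 to 25 calls for iCM with DMSO against CF (23 with all), 5 to 14 for ZLN005 (11) and 7 to 13 for GW501516 (11) against DMSO, 2 to 7 for ZLN005 against GW501516 (4), 26 to 31 for CM against CF (27), 24 to 32 against iCM with DMSO (30), 27 to 30 against ZLN005 (29) and 26 to 31 against GW501516 (29). The only reversed result was Dkk3 in CM against CF, which was not called with all libraries (0.03), was -0.10 without CF replicate 1 (adjusted p = 0.0342) and 0.17 without CF replicate 2 (0.00142). The cause of these moves was not tested.

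Samples that share a replicate number did not deviate together (correlations from -0.0032 to 0.040). With 2 libraries per group this cannot show whether the numbers mark a shared culture, animal or batch. With a replicate block, the counts were 23, 10, 11, 3, 27, 30, 28 and 29 in the order given above, and the calls lost were Wnt5a for ZLN005 against DMSO (0.0517), Wnt7a for ZLN005 against GW501516 (0.0508) and Wnt6 for CM against ZLN005 (0.0517). Genes with few reads had fold changes that depend on single libraries, and 2 libraries per group limit every call.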

Other observations

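The filter on low counts removed 10 members. Wnt9b had no count in any library. Summed over all 10 libraries, Dkk4 had 5 counts, Wnt3a 6, Wnt1 and Wnt8b 12 each, Wnt8a 24, Fzd10os 25, Wnt3 36, Wnt7b 54 and Wnt10a 63. Fzd9, Fzd10, Sfrp5, Wnt6 and Wnt10b passed the filter but stayed below 1 CPM on average in every group.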
